A study of Mus musculus with 8 samples.

Results

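Accessible chromatin was described around 8 genes of the mouse Ly6 cluster on chromosome 15: Ly6a, Ly6c1, Ly6c2, Ly6d, Ly6e, Ly6g, Ly6i and Ly6k. They were chosen by name, and 21631 coding genes of the autosomes and X were counted with the same rule. A peak was assigned to a member when it lay inside the gene or within 50 kb of either end. It was shared when peaks of both samples overlapped by at least 1 bp. These windows held 23 of the 44365 shared regions of the series. The data came from 2 ATAC-seq libraries of unstimulated CD8-positive dendritic cells of the mouse, kept in culture. ATAC-seq finds accessible DNA by letting a transposase cut and tag it in nuclei. The labels name the spleen as the source and, in another field, a cell line, and give no strain, genotype or age. The other 6 of the 8 samples, in which IRF3, IRF5 or IRF9 was immunoprecipitated after stimulation, were not analysed here. Both libraries are of 1 condition, so no difference between conditions could be measured.

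Ly6 genes encode small proteins with a disulphide-bonded finger-like fold, most of them held on the cell surface by a glycolipid anchor. Immunologists know them chiefly as surface labels. Ly6a is Sca-1, a label of blood stem cells that interferons raise on many leukocytes. The Ly6c proteins, encoded by Ly6c1 and Ly6c2, mark inflammatory monocytes and several other cells, and Ly6g marks neutrophils. Ly6d labels lymphoid progenitors that lean to the B cell fate, Ly6e is an interferon-induced gene whose product restricts coronavirus entry, and Ly6k acts in the male germ line. CD8-positive dendritic cells are specialised in presenting antigens of other cells to CD8 T cells.

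Replicate 1 had 50950 peaks and replicate 2 had 58319. Reads at each summit, the highest point of a peak, were worked out from the deposited fold enrichment and p-value. Replicate 1 had a median of 16 reads and a minimum of 7, and replicate 2 a median of 22 and a minimum of 9. The lowest local background, which scales with the depth of a library, was 1.89 times as high in replicate 2 (1.28 reads) as in replicate 1 (0.676). Genes listed as labels of cell types were counted beside all coding genes, of which 57.5% had a shared region inside the gene and 47.8% within 1 kb of an end. Of 9 labels of this dendritic cell type 8 had one inside and 4 had one at an end, Cadm1, Flt3, Irf8 and Xcr1. Cd8a was not among those with one at an end. Labels of other cells were also accessible. All 4 plasmacytoid dendritic cell genes had a region inside and at an end, all 4 T cell genes had one inside and 1 at an end, and 2 of 4 monocyte genes had one inside and 2 at an end. Of 4 B cell genes 1 had a region inside and 1 at an end, and of 5 neutrophil genes 0 and 1. These counts do not set the named cell type apart from the others.

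Most members of the cluster had accessible sites near them rather than at their ends. Of the 8 members, 2 had a shared region within 1 kb of an end, Ly6e and Ly6c2. Over all coding genes this share was 47.8%. The same 2 members had a shared region inside the gene, against 57.5% of all coding genes. The members are short, the longest being 4903 bp. Among the 4794 coding genes no longer than that, 28.3% had a shared region at an end and 25.03% inside, so the members' counts are near those of short genes. With the window of 50 kb, 7 of the 8 members had a shared region, all but Ly6k, against 79.5% of all coding genes and 58.6% of the short ones. Of the 23 shared regions 4 touched a member gene, 11 touched another annotated gene, among them pseudogenes and lncRNA genes, and 8 touched none. The members covered 6.61% of the length of the windows and were touched by 17.4% of the regions. Ly6e held 3 of these regions and Ly6c2 held 1, and a region counted when any base of it lay in the gene.

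With the 50 kb window, the number of shared regions was highest at Ly6e and Ly6i and lower at each further member to the right, an order that changed with the window and the threshold. Ly6e and Ly6i had 12 each, Ly6a had 10, Ly6c1 had 8, Ly6c2 had 6 and Ly6g had 4. Ly6d had 1 and Ly6k had 0. The median over members was 7, against 5 over all coding genes and 2 over the short ones. It depends on which genes are listed as members. Of the other Ly6 genes of the cluster that were counted, Ly6m had 3, Ly6g2 had 2, Ly6h had 1, and Ly6f and Ly6l had 0. Over the 20 other listed genes of the cluster and its flanks the median was 2.5. Ly6e and Ly6i stood above 90.0% of coding genes by this count, Ly6c2 above 57.5% and Ly6g above 42.2%. The peaks of each list taken alone gave a like order. Ly6e had 12 peaks in replicate 1 and 18 in replicate 2, Ly6i had 12 and 17, Ly6a 10 and 12, and Ly6c1 9 and 10. Ly6c2 had 7 peaks in replicate 1 and 9 in replicate 2, Ly6g had 4 and 7, Ly6d 3 and 4, and Ly6k 1 and 2. The ranges of neighbours in this order touched or overlapped, except that Ly6k stood below Ly6d. With windows of 100 kb Ly6a came first with 18 shared regions, before Ly6c1 with 16, Ly6i with 15 and Ly6e with 14. With windows of 20 kb Ly6c2, with 2, stood above Ly6c1, with 1. When only the 50% of peaks with the higher −log10 q were kept in each list, Ly6e and Ly6c2 had 4 each and Ly6i, Ly6a and Ly6c1 had 3 each.

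Neighbouring members share regions, so these counts are not independent. Of the 23 regions 18 lay in the windows of several members and 5 in that of 1 member. Ly6e and Ly6i held 10 regions in common, 83.3% of the regions of each. Ly6i and Ly6a also held 10 in common, which were 83.3% of those of Ly6i and all of those of Ly6a. Ly6c1 and Ly6c2 had 4 in common, 50% of those of Ly6c1 and 66.7% of those of Ly6c2. Ly6d and Ly6k shared none with the other members.

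**Figure D1:**
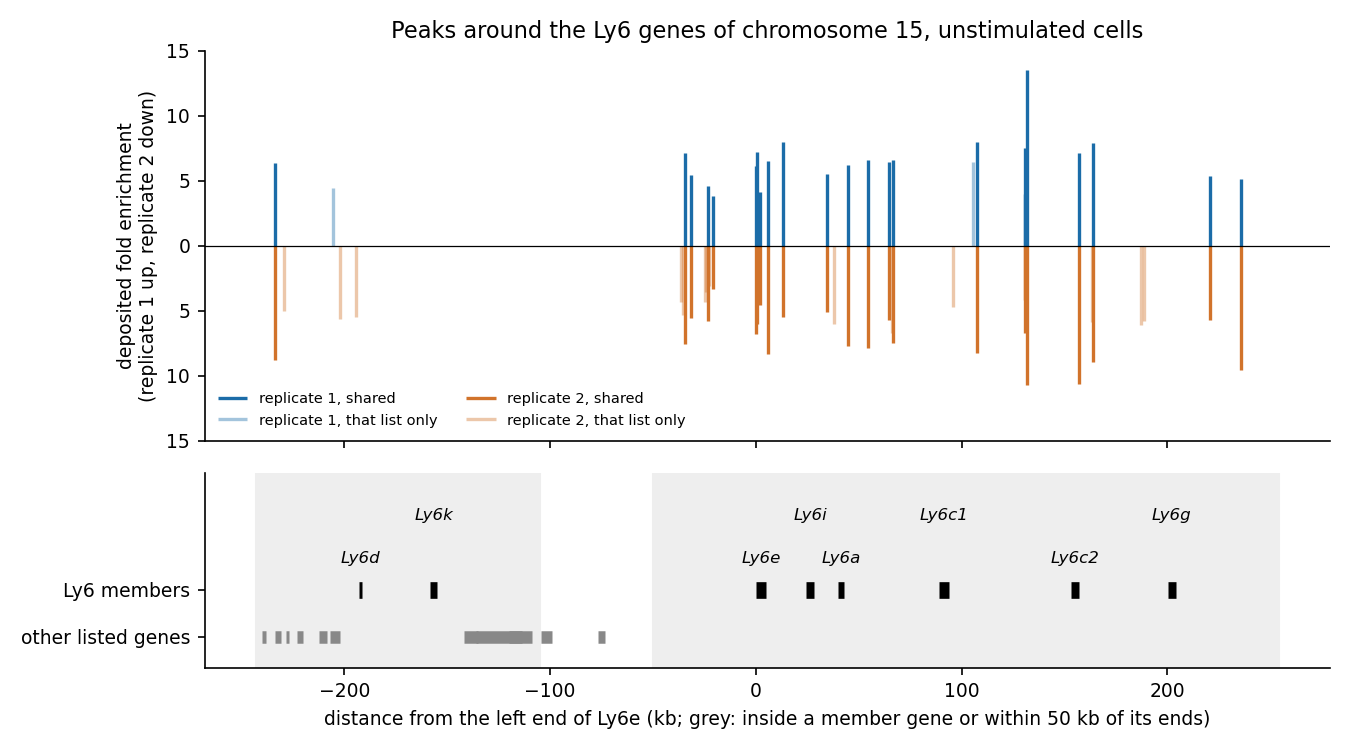
Deposited fold enrichment of each peak (replicate 1 upwards, replicate 2 downwards) against the distance of its region from the left end of Ly6e in kb; pale lines are peaks of 1 list only, and the lower panel shows the genes. Regions crowd around Ly6e and up to Ly6c2, Ly6k has no shared region within its window, and the tallest lines stand between Ly6c1 and Ly6c2 and reach 13.5 in replicate 1 and 10.7 in replicate 2.

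**Figure D2:**
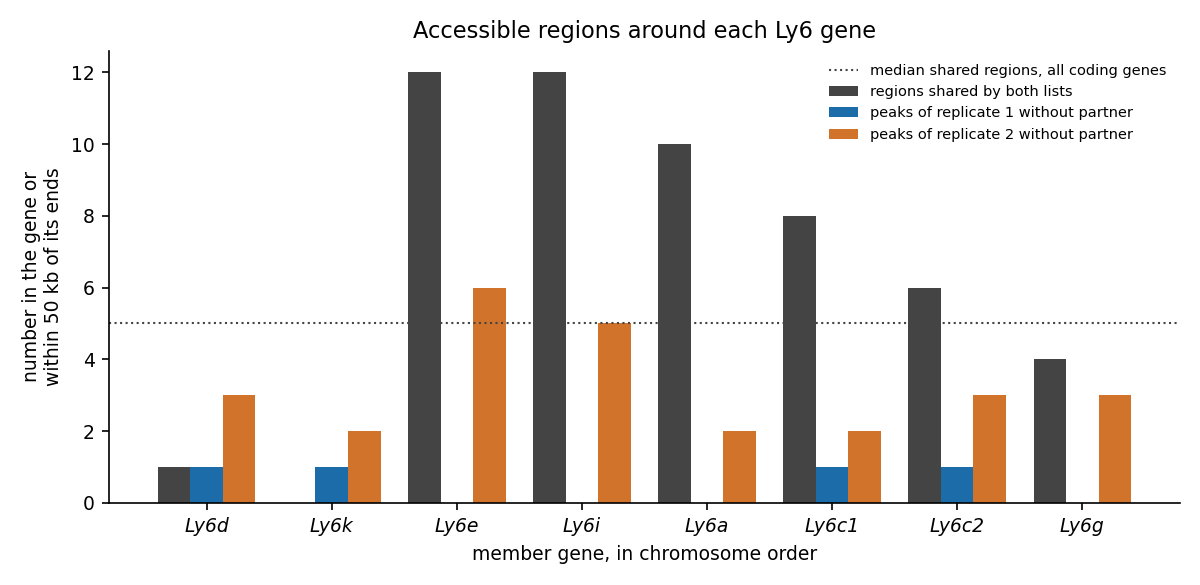
Number of shared regions and of peaks without a partner inside each member gene or within 50 kb of its ends, in chromosome order, with the median number of shared regions over all coding genes as a dotted line at 5. Ly6e, Ly6i, Ly6a, Ly6c1 and Ly6c2 stand above the line with 12, 12, 10, 8 and 6 shared regions, and Ly6g, Ly6d and Ly6k below it with 4, 1 and 0.

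Ly6e, an interferon-induced member (chr15:74955025-74959904), had 4 shared regions in the gene or within 1 kb of its ends, and Ly6c2, the other member with any, had 1. A shared region covered its left end at chr15:74954901-74955222. The deposited fold enrichment, the reads at the summit over the local background of the same library with 1 added to each, was 6.10 there for replicate 1 and 6.79 for replicate 2. The summit held 27 reads in replicate 1 (95% exact Poisson interval 17.8 to 39.3, counting error only) and 43 in replicate 2 (31.1 to 57.9). A further region lay inside the gene, 530 bp from that end at chr15:74955555-74955779, with fold enrichments of 7.17 and 6.05 and 33 and 39 reads. Another inside region, at chr15:74957051-74957226, was weaker by this measure, with 4.13 and 4.56 from 21 and 33 reads. Past the right end, 968 bp away, chr15:74960872-74961073 had 6.51 in replicate 1 and 8.31 in replicate 2. All 4 of these regions had more reads than the median peak of their list. Their local background was raised as well, from 2.69 to 4.33 reads in replicate 1 and from 4.06 to 6.45 in replicate 2, against medians of 1.38 and 2.11 over all peaks. The fold enrichment divides by that background.

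Left of Ly6e, 4 more shared regions lay 20896 to 34038 bp from the gene. The strongest of them, chr15:74920716-74920987, had fold enrichments of 7.11 in replicate 1 and 7.56 in replicate 2. The next, chr15:74923546-74923697, overlapped the end of the pseudogene Gm6610 and had 5.40 and 5.54. The other two lay inside the lncRNA gene Gm39556, at chr15:74931673-74931918 with 4.63 and 5.77 and at chr15:74933981-74934129 with 3.805 and 3.31, the lowest values of any shared region in the cluster. Replicate 2 listed 5 further peaks between or beside them that replicate 1 did not, with fold enrichments from 3.11 to 5.32 and 18 to 33 reads.

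Ly6i (chr15:74979534-74983434) and Ly6a (chr15:74994877-74998031) had no shared region inside or within 1 kb of an end. The nearest to Ly6a, the Sca-1 gene, began 1821 bp beyond its right end at chr15:74999852-74999990, with fold enrichments of 6.19 in replicate 1 and 7.75 in replicate 2 from 12 and 22 reads. With a window of 2 kb around gene ends Ly6a would be counted with Ly6e and Ly6c2, 3 of 8 members against 52.3% of coding genes. Replicate 2 also listed a peak 1912 bp left of Ly6a, at chr15:74992878-74992965 with 5.998, which had no partner in replicate 1. The nearest shared region to Ly6i, chr15:74989420-74989572, was 5986 bp away and had 5.54 and 5.11. Between Ly6e and Ly6i a shared region at chr15:74968297-74968514 had 7.99 in replicate 1 and 5.45 in replicate 2. By raw reads it was the single shared region of the cluster with fewer in the deeper library. It had 19 in replicate 1 (interval 11.4 to 29.7) and 17 in replicate 2 (9.90 to 27.2), and these intervals overlap. Divided by the ratio of the lowest backgrounds, 1.89, its read ratio of replicate 2 over replicate 1 was 0.473, the lowest of the cluster. So divided, the ratio was above 1 only at the start of Them6 (1.11), at the start of Ly6c2 (1.15) and at chr15:75190840-75190990 (1.45).

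Between Ly6a and Ly6c1, 3 more shared regions lay within the long lncRNA gene Gm28068, which also spans Ly6i and Ly6a. They were chr15:75009530-75009673, with 6.56 and 7.90, chr15:75019698-75019789, with 6.41 and 5.73, and chr15:75021489-75021644, with 6.56 and 7.50. Each rested on 10 to 13 reads in replicate 1 and 15 to 21 in replicate 2. Their background was low, from 0.676 to 1.14 reads in replicate 1, so fold enrichments like those at Ly6e came from fewer reads here.

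Ly6c1 and Ly6c2 encode near copies of the Ly6c antigen, and a shared region was found at the start of Ly6c2 but not of Ly6c1. The region over Ly6c2 (chr15:75108161-75112066) was chr15:75111878-75112098, with fold enrichments of 7.13 in replicate 1 and 10.6 in replicate 2. Its summit held 12 reads in replicate 1 (interval 6.20 to 21.0) and 26 in replicate 2 (16.98 to 38.1). RefSeq lists 2 starts for Ly6c2 there. The summit was 46 and 12 bp from them in replicate 1 and 13 and 21 bp in replicate 2. At Ly6c1 (chr15:75044018-75048920) the nearest shared region was 13270 bp from the gene, and replicate 2 alone listed a peak 1803 bp from its right end with 4.70 and 10 reads. With only those higher-scoring peaks the Ly6c2 region was not shared. By that score it stood above 40.7% of all peaks in the list of replicate 1 and above 77.5% in that of replicate 2.

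The promoters are printed because they show how alike the genes are where 1 of them had a region and the others none. Promoters from 250 bases before to 50 after the start (RefSeq, GRCm38.p6) were listed for 3 of the 8 members, Ly6c1, Ly6c2 and Ly6g, and for their neighbour Ly6a2. Each is given 5′ to 3′ along its gene, for the first start listed, and capitals mark GAGGAAGT, a sequence that the myeloid factor PU.1 is known to bind.
Ly6c2: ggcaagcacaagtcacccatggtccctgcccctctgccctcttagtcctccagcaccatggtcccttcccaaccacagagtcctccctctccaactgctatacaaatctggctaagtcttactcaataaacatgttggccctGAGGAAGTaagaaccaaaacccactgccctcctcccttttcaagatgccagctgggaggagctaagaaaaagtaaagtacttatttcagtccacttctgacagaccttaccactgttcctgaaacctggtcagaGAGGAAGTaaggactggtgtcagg
Ly6a2: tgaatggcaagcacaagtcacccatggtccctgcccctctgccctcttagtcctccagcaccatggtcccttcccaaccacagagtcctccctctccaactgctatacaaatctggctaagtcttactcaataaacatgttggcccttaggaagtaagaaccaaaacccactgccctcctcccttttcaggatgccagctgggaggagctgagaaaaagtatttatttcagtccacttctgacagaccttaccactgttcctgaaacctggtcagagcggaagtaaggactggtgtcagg
Ly6c1: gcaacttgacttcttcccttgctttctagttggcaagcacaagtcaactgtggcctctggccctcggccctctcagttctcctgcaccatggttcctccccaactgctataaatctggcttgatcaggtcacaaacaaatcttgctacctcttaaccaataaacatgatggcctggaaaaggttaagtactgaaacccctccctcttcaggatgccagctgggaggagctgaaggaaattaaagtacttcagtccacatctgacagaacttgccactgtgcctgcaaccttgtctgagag
Ly6g: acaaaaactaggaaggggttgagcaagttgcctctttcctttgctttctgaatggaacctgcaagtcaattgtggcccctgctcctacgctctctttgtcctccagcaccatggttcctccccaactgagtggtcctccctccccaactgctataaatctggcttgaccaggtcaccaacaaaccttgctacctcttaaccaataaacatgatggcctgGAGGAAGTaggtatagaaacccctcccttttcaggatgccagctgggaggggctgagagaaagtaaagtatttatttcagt
The stretches are chr15:75111922-75112221 (minus strand) for Ly6c2, chr15:75135079-75135378 (minus strand) for Ly6a2, chr15:75048788-75049087 (minus strand) for Ly6c1 and chr15:75155011-75155310 (plus strand) for Ly6g. The shared region covered bases 124 to 300 of the Ly6c2 stretch and none of the other stretches. Over the first listed promoter of 26794 genes, 31.9% were touched by a shared region.

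Ly6c2 and Ly6a2 were 96.7% identical over 300 aligned columns, with a longest identical run of 142 bases. They differed by 5 substitutions and by a gap of 5 columns. Counted from 1 at the 5′ end of the printed Ly6c2 sequence, G143T and A278C fell inside the 2 matches to GAGGAAGT. Ly6a2 therefore had 0 exact matches. At both places it kept the bases GGAAGT, and only matches to all the letters were counted. Ly6c2 and Ly6c1 were 73.8% identical with a longest run of 20 bases, and Ly6c2 and Ly6g 70.3% with 18. Reads from such near copies can be hard to place, and the authors' treatment of reads with several positions is not known here. The values at Ly6c2 and the lack of a shared region at Ly6a2, Ly6c1 and Ly6g are uncertain to that extent.

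Both strands of each promoter were searched for short sequences known as binding sites. GAGGAAGT, added to the search after the sequences were seen, occurred in 3.30% of the 26794 promoters. It was found 2 times in Ly6c2, at bases 143 to 150 and 277 to 284, both within the shared region. Ly6g had it 1 time, Ly6c1 0 times and the neighbouring Ly6f 2 times, and the promoter of Ly6f had no shared region either. The printed Ly6g stretch stops before the place that lines up with bases 277 to 284 of Ly6c2, and that of Ly6c1 stops before its end. The count of Ly6g therefore leaves that place out, and the count of Ly6c1 does not cover it in full. RefSeq lists a further start for both genes, and the stretches around it were not searched. TGTGGT, the Runx core, was found 1 time in Ly6c2 and 1 time in Ly6a2 and occurred in 16.8% of promoters. CANNTG, the E box, was found 2 times in Ly6c2, 4 times in Ly6c1 and 4 times in Ly6g and occurred in 72.2%. None of the 4 printed promoters had a match to the core of the interferon-stimulated response element (3.51% of promoters), to TTCNNNGAA, a STAT site (8.51%), to the composite site of PU.1 and IRF factors (2.81%), or to TGANTCA, an AP-1 site (7.98%). A letter match is not a measured binding site.

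The highest scoring stretch of the cluster lay in the gap between Ly6c1 and Ly6c2. It was 1526 bp long, chr15:75085517-75087042, 36597 bp from Ly6c1 and 21119 bp from Ly6c2, and held 3 shared regions with 6 summits in each list. The largest, chr15:75086255-75087042, reached fold enrichments of 13.5 and 10.7 in replicates 1 and 2, from 104 reads (interval 85.0 to 126) and 110 reads (90.4 to 133). With −log10 q values of 77.5 and 70.3 it ranked 18 of 50950 in replicate 1 and 27 of 58319 in replicate 2. The left one, chr15:75085517-75085847, had 7.52 and 6.70 from 57 and 68 reads, and the middle one, chr15:75085992-75086166, had 4.01 and 4.16 from 30 and 42. The local background was 6.75 reads in replicate 1 and 9.38 in replicate 2 at the largest region, higher than at 99.6% of the peaks of both lists. No annotated gene overlapped the stretch, and the pseudogene Gm5960 was the nearest gene. The part of this raised background in the scores was not tested.

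Sites with fewer reads lay on either side of this stretch. A region inside Gm5960, chr15:75062190-75062646, had fold enrichments of 7.95 in replicate 1 and 8.25 in replicate 2 with 2 summits in replicate 1 and 3 in replicate 2. A region 6680 bp beyond the start of Ly6c2, chr15:75118746-75118977, had 7.88 and 8.98. Both were above the median of their lists, which was 7.001 in replicate 1 and 6.88 in replicate 2.

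Ly6g, the neutrophil label gene (chr15:75155261-75159128), had no shared region inside or near its ends. The nearest one, chr15:75175669-75175796, was 16541 bp from the gene and 20408 bp from its start. It had fold enrichments of 5.37 in replicate 1 and 5.71 in replicate 2 from 8 and 12 reads, near the fewest listed. The next, chr15:75190840-75190990, had 5.15 and 9.56 from 8 and 22 reads (intervals 3.45 to 15.8 and 13.8 to 33.3). Its read ratio of 2.75 between the libraries was the highest of the cluster, where the ratio had a median of 1.53, against 1.44 over all shared regions. The other two regions in the window of Ly6g were those at and beyond the start of Ly6c2. Replicate 2 alone listed peaks at chr15:75141996-75142128 and chr15:75143888-75143961, between Ly6a2 and Ly6g, with 6.08 and 5.77.

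Ly6d and Ly6k, which lie to the left and 155.1 kb or more from Ly6e, had the fewest regions. The single shared region of Ly6d (chr15:74762056-74763567) was 40459 bp away at the start of Them6, a gene of the thioesterase family, at chr15:74720933-74721597. It had fold enrichments of 6.38 in replicate 1 and 8.79 in replicate 2. Closer peaks were in 1 list each. Replicate 2 listed one 1140 bp from Ly6d (5.45 from 12 reads), and one 23 bp from the end of Lynx1, a neuronal modulator of acetylcholine receptors (5.63 from 12 reads). Replicate 1 listed one inside Lynx1 (4.46 from 8 reads). These 3 peaks were the only ones of either list in the window of Ly6k (chr15:74796874-74799968), whose nearest shared region was 75277 bp away. In all, 20.5% of coding genes had no shared region in their window.

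**Figure D3:**
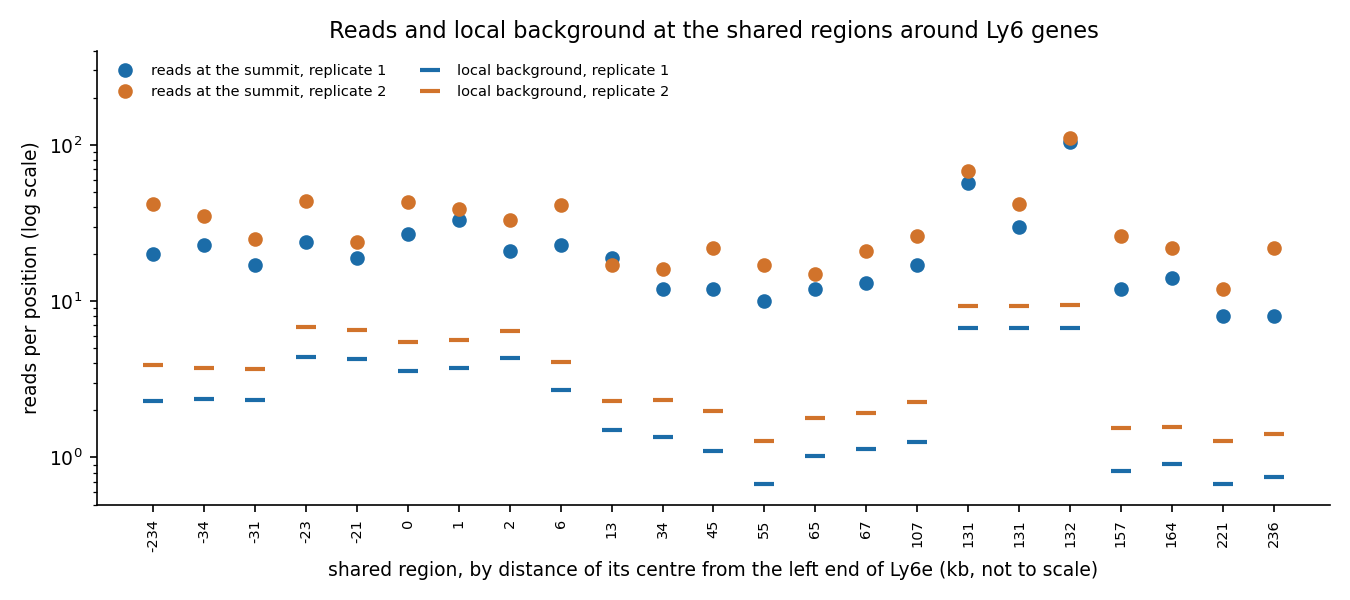
Reads at the summit (points) and local background (dashes) of both libraries, on a log scale, at the 23 shared regions in chromosome order, each named by the distance of its centre from the left end of Ly6e in kb. The points at 132 kb reach 104 reads in replicate 1 and 110 in replicate 2, the background is raised at Ly6e and at 131 to 132 kb, and at 13 kb replicate 2 lies below replicate 1. Reads are shown without correction for depth.

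The peaks of the windows were also set beside those of the whole lists. Of 26 peaks of replicate 1 in the windows 24 were shared (92.3%, exact binomial 95% interval 74.9 to 99.1), against 90.0% of its whole list. Of 37 peaks of replicate 2, 23 were shared (62.2%, 44.8 to 77.5), against 76.5% of its list. The interval of replicate 2 includes the value of the whole list, and no test of the difference was made. The peaks of replicate 2 without a partner held 10 to 33 reads with a median of 18, and its shared peaks 12 to 110 with a median of 26. The 2 peaks of replicate 1 without a partner held 8 and 14 reads. Over the 23 shared regions the median of the fold enrichment was 6.41 for replicate 1 and 6.79 for replicate 2, against 7.22 and 7.59 over all shared regions.

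**Figure D4:**
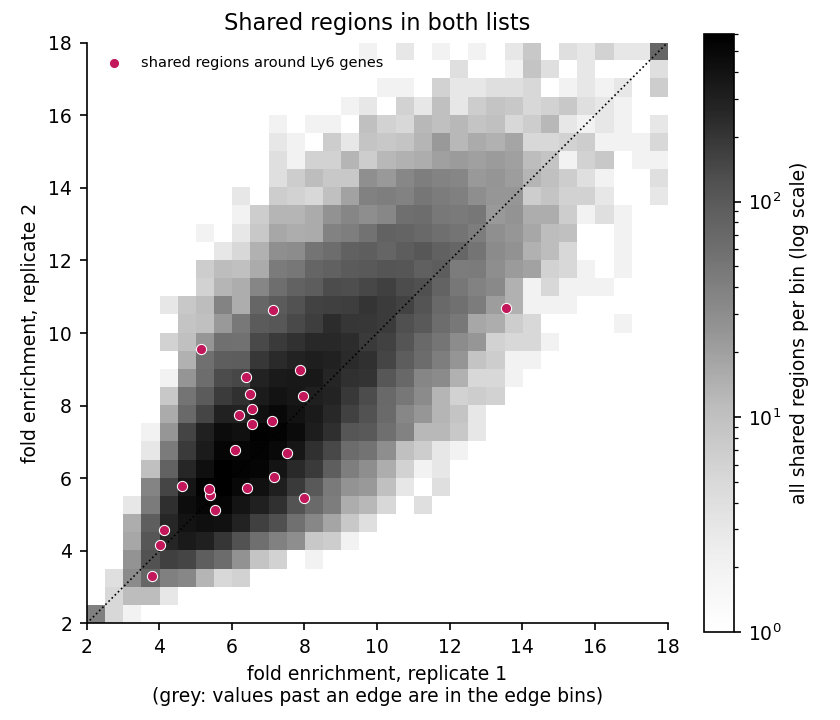
Fold enrichment in replicate 1 (horizontal) and replicate 2 (vertical) of the 23 shared regions around Ly6 genes (points) over the number of all shared regions per bin (grey, log scale); the dotted line marks equal values. The points lie within the grey cloud, from 3.805 to 13.5 in replicate 1 and from 3.31 to 10.7 in replicate 2.

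The windows held 52.0 shared regions per Mb, against 19.4 over chromosome 15 and 16.9 over the autosomes and X. Windows set around genes hold more regions than the genome at large, and this was not corrected for. Regions were spread unevenly. A stretch of 135.6 kb with no peak in either list, chr15:74760917-74896473, contained Ly6d, Ly6k, the related Ly6g6g, Ly6m, Gml and Gml2, and the steroid synthesis genes Cyp11b1 and Cyp11b2. A longer one, 425.4 kb from chr15:75190991 to 75616341, began to the right of Ly6g and contained 8 coding genes, among them Ly6g2, Ly6f, Ly6l, Ly6h and Gpihbp1, whose product carries lipoprotein lipase into capillaries. Of 63117 such stretches between neighbouring peaks 98.3% were shorter than the longer one and 95.1% were shorter than the other. A stretch with no peak holds no site that was detectable at this depth and threshold. How the unknown treatment of reads with several positions bears on these stretches was not tested.

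Of all coding genes, 47.8% had a shared region within 1 kb of an end. Among 20 listed genes of the rest of the chromosome 15 cluster and its flanks, 4 had one there. These were Arc, a neuronal gene, Jrk, Them6 and Top1mt, the mitochondrial topoisomerase gene. None of them encodes a Ly6 protein. Arc had fold enrichments of 5.25 in replicate 1 and 6.81 in replicate 2, Jrk had 6.47 and 5.69, and Top1mt had 7.19 and 7.95. Psca, Slurp1, Slurp2, Lypd2, Lynx1, Ly6h, Gpihbp1, Ly6m, Ly6f, Ly6g2 and Ly6l had none. Their 50 kb windows held 0 to 5 shared regions.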

How the data were processed

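The authors deposited 1 list of peaks per ATAC-seq sample. Per the submitters' processing notes, the build was mm10 and the tools included MACS2, HOMER 4.9.1, Picard 2.8.1, BWA 0.7.17 and Trimmomatic, with no role stated. The deposited values are a score, a fold enrichment (a ratio), a −log10 p and a −log10 q for each summit. The transposase shift, removal of duplicates and treatment of reads with several positions are not given in the sources used here. Entries of the same peak were joined and the best kept. Summit reads were solved from the fold and the Poisson p, which came back within 0.002 for 100% of summits. Overlapping peaks were merged, and a region is shared when it holds a peak of each list. Distances run from the nearest base of a region. Genes and promoters came from RefSeq (GRCm38.p6), whose gene table gives no strand, so both ends were counted. Python 3.11.15, numpy 2.4.6, pandas 2.3.3, scipy 1.17.1 and matplotlib 3.10.9 were used, after tests on simulated data. The members, gene lists and rules were chosen with earlier results of these data known, so values are given without tests. The genes named are the 8 members, the listed genes of the cluster and the genes nearest to a region; Ly6a2 was added for its promoter. Nothing in the labels says that the replicates came from separate cultures, so their differences may be technical. Alternatives were another overlap, threshold, window and placement of regions, and each list alone.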

Additional observations from a re-analysis of the deposited data

How the results depend on the processing

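Of 48 values of the 8 main results under other settings, 38 stayed within 1.5 times the count, the binomial interval of the share or 1 SD of the density, and 10 moved. That SD, 17.6 per Mb, is the one between the lists each taken alone, which are also among the settings judged by it. The count and the density describe the same regions, so the values are not independent. Keeping only the 50% of peaks with the higher −log10 q, the windows held 9 shared regions (20.4 per Mb) and the median per member was 3. With these peaks 1 member, Ly6e, had a region at an end and 1 inside the gene. A region at an end was then found for 34.8% of coding genes, against 47.8% with all peaks. The share of coding genes with a region inside, their median count and the density over the genome were not counted under this setting. Each list alone gave 26 to 37 regions in the windows, 58.8 to 83.7 per Mb, the higher values from replicate 2. Windows of 20 kb held 12 shared regions with a median of 1.5 per member, and windows of 100 kb gave a median of 12.5. The median over all coding genes was not counted with these windows. The better-scoring lists and the smaller windows hold fewer peaks by construction. Of 56 counts for single members 24 moved by over 1.5 times, and their order changed with the window and with the higher-scoring peaks. With a reciprocal overlap of 50% Ly6d lost its single region. No paired analysis was possible because there was 1 group. Sites with fewer reads than the weakest listed summits are absent from the lists.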

Other observations

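Genes of the same protein family outside chromosome 15 were counted in the same way. Of 19 listed genes with a Ly6 or urokinase receptor domain, 3 had a shared region within 1 kb of an end. These were Pinlyp, Ly6g6e and Ly6g6f. The share was 47.8% over all coding genes and 28.3% over those no longer than 4903 bp, and the 19 include shorter and longer genes. The region at Pinlyp, which encodes an inhibitor of phospholipase A2, reached fold enrichments of 13.5 and 14.6 in replicates 1 and 2. Ly6g6e and Ly6g6f, neighbours in the major histocompatibility complex on chromosome 17, were counted through the same region, with 10.7 and 9.12. Plaur, the urokinase receptor gene, and Cd59a and Cd59b, which encode inhibitors of complement, had none at an end and none inside the gene, with 5, 3 and 3 shared regions in their windows. In all, 17 of the 19 genes had a shared region in the window, against 79.5% of all coding genes. The median was 5, as it was over all coding genes.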
